A study of Mus musculus with 4 samples.

Results

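The expression of 10 germline genes was examined in mouse blastocysts after culture with either of 2 related metabolites, α-ketoglutarate (α-KG) and 2-hydroxyglutarate (2-HG). The keto group of α-KG is a hydroxyl group in 2-HG. The genes are Dazl, Ddx4, Mael, Asz1, Sycp3, Sycp1, Tex101, Tex19.1, Stk31 and Hormad1. They were chosen by name as genes that DNA methylation keeps silent outside the germline, and all 10 were found among the 53715 genes of the deposited table. Per the labels, all embryos were C57BL/6, were taken from the oviduct as zygotes, and were cultured in KSOM, an embryo culture medium. The groups were embryos given α-KG at 0.15 mM, their negative control, embryos given 2-HG at 0.3 mM, and their own negative control, with dosing from the stage with 2 pronuclei. Each group is 1 library, so no test was possible, and a difference is described against that between the 2 controls. The labels do not give the number of embryos in a library or the enantiomer of 2-HG.

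In the mouse embryo most DNA methylation inherited from the gametes is lost by the blastocyst stage and is put back around implantation. Promoters of many germline genes are rich in CpG, the dinucleotide that is methylated, and in somatic cells they are methylated and silent. Before implantation some of these genes are also held down by a Polycomb complex that contains E2F6 and the E-box binding pair MGA and MAX. TET enzymes oxidise methylated cytosine and consume α-KG as they do so, and 2-HG can compete with it, so the question was whether these genes leak under either compound.

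The promoters of the 10 genes all lay above the median of promoters in CpG content, by differing margins. RefSeq windows (build GRCm38.p6) from 250 bases before to 50 after the transcript start were found for all 10 genes, in 12 windows. They held 15 to 38 CpG each, against a median of 7 and an upper quartile of 20 over 32851 promoter windows of all genes. Sycp3 (15), Tex19.1 (16), Asz1 (17) and Tex101 (19) lay under that quartile. The ratio of observed to expected CpG was 0.575 for Tex19.1 at the low end and 0.978 for Ddx4 at the high end, against a median of 0.384 over all windows. By the first window of each gene, 6 of 10 reached the upper quartile of 0.750. The letters TCCCGC, a core of the E2F6 site, were found on at least 1 strand in 6 of 10 genes, namely Mael, Hormad1, Sycp1, Sycp3, Tex19.1 and Ddx4. The E-box CACGTG, which reads the same on both strands, was found in 6 of 10, namely Mael, Hormad1, Sycp1, Stk31, Sycp3 and Ddx4. Over all windows, 6562 held the first and 2349 (7.15%) the second. Both motifs hold a CpG, and among the 11378 windows with at least 15 CpG the shares were 45.4% and 11.3%. The motifs do not overlap each other in the stretches printed here. A match is a run of letters and not a measured binding site, and no methylation was measured in this study.

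**Figure D1:**
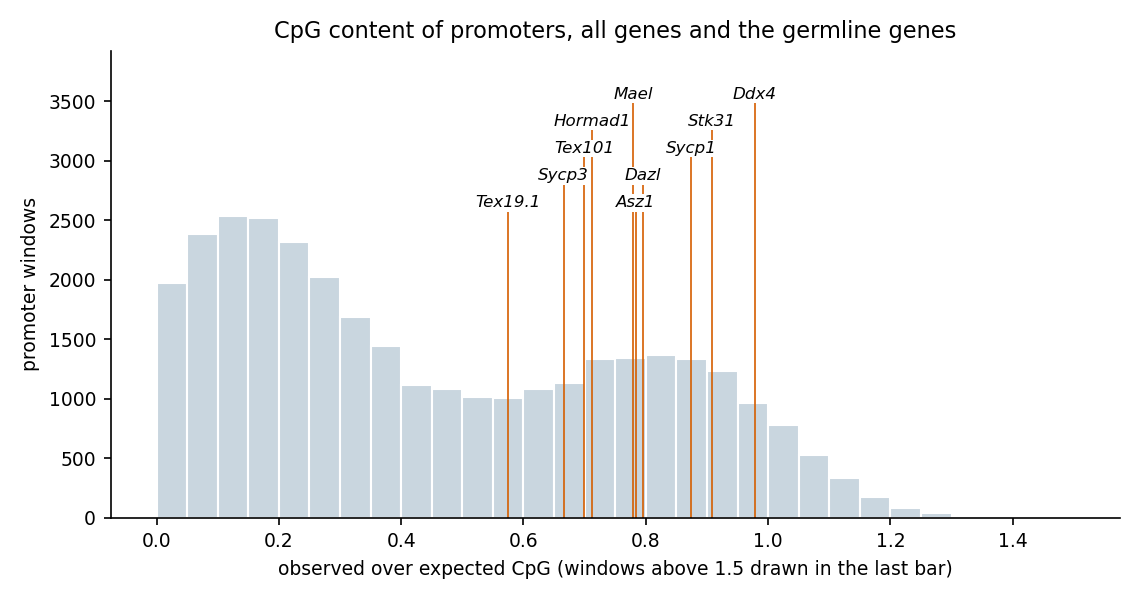
Ratio of observed to expected CpG in promoter windows (x axis) against the number of windows (y axis, bars for all 32851 windows). Orange lines mark the first window of each of the 10 germline genes, which lie between 0.575 (Tex19.1) and 0.978 (Ddx4), to the right of the median of 0.384 over all windows.

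Of these promoters, 3 are printed to show how the motifs lie in the gene with the highest level (Sycp3), in a gene that was lower with both compounds (Hormad1) and in one without either motif (Dazl). Each is the 250 bases before the RefSeq start, 5′ to 3′ on the gene's strand, with the motifs in capitals. GCGGGA is TCCCGC read on the other strand. Sycp3 lies at chr10:88459337-88459586 on the plus strand, Hormad1 at chr3:95559427-95559676 on the plus strand and Dazl at chr17:50293621-50293870 on the minus strand.
Sycp3: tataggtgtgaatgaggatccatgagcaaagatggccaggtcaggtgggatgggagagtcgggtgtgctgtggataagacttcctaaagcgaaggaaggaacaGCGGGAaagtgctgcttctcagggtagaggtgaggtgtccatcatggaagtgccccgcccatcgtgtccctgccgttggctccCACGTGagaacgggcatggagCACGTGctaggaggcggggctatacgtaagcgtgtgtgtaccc
Hormad1: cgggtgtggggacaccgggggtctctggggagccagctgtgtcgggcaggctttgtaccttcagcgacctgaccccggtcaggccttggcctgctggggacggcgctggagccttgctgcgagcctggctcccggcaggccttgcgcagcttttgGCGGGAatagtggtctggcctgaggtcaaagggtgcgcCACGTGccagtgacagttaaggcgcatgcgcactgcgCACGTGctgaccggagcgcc
Dazl: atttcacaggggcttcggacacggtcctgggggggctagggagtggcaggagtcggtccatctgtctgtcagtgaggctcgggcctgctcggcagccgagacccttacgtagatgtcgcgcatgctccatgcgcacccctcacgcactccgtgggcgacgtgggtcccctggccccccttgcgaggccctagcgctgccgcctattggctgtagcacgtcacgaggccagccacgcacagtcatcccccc

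The name of silenced genes went against the levels at this stage. Values are TPM, a measure of transcript abundance scaled to gene length and to a common total in each library. At or above 1 TPM were 10 of 10 genes with α-KG, 9 in its control, 9 with 2-HG and 9 in its control, while 48.7% to 50.2% of protein-coding genes reached that level in the same libraries. At or above 5 TPM were 7, 7, 7 and 8 of the 10 in the same order. Together the 10 genes summed to 301 TPM with α-KG and 329 TPM in its control, and to 323 TPM with 2-HG and 322 TPM in its control. Sycp3 alone, whose value is uncertain as given below, made up 123, 141, 159 and 127 TPM of these sums in the same order. The 10 genes are therefore called germline genes below, without the word silenced, by their levels gene by gene.

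**Figure D2:**
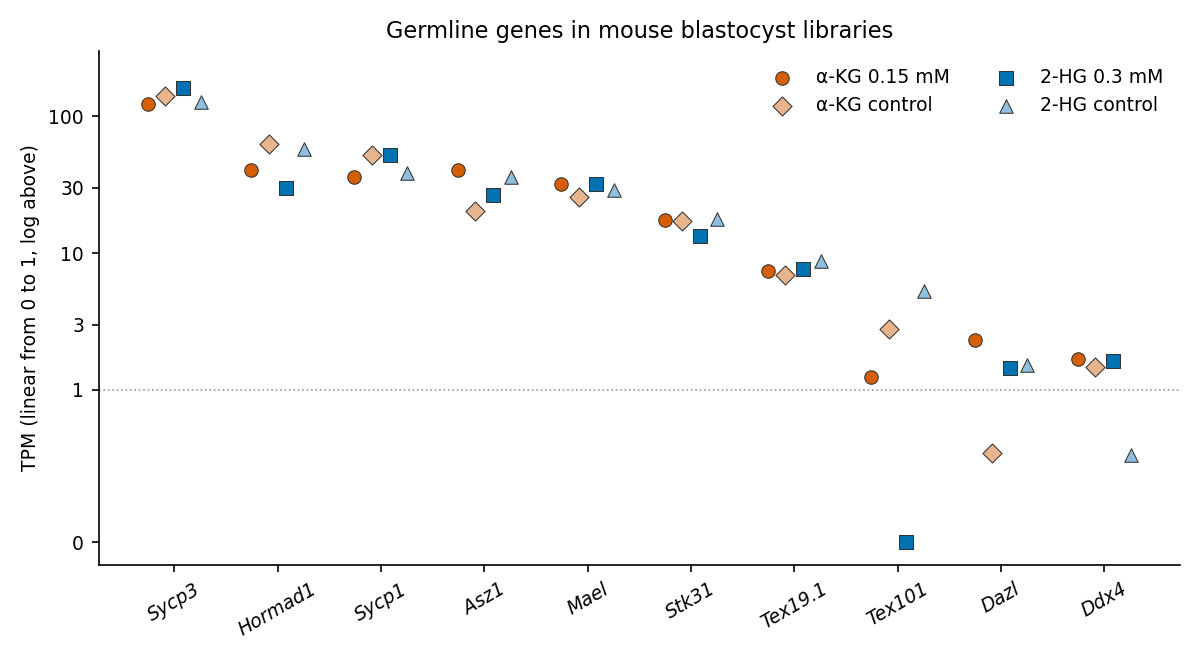
TPM of the 10 germline genes (x axis, ordered by mean level) in the 4 libraries, 1 point per library. The y axis is linear from 0 to 1 TPM and logarithmic above, and the dotted line marks 1 TPM. Sycp3 stood highest at 123 to 159 TPM, and Tex101, Dazl and Ddx4 lay at 5.29 TPM or less.

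The order of the levels was Sycp3, Hormad1, Sycp1, Asz1, Mael, Stk31, Tex19.1, Tex101, Dazl and Ddx4, by the mean of log2(TPM + 1) over the 4 libraries. The ranges of Sycp3, Stk31 and Tex19.1 over the libraries overlapped with those of neither neighbour in this order. From Hormad1 to Mael each gene's range overlapped with that of the next, as it did from Tex101 to Ddx4, so the order within these 2 sets lies inside the spread of the libraries.

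With α-KG, none of the 10 genes passed the size rule, and the germline genes as a group were near their control levels. The rule asks for a difference in log2(TPM + 1) of at least 1, that is 2-fold, and for 5 TPM or more in the treated library or its control. Of 7 genes that could be measured so, 0 were higher and 0 lower by this rule, where 7.31% of 9878 genes passed in one direction or the other. Their median difference was 0.03, beside 0.05 over all genes. With 2-HG, 1 of 8 measured genes passed, Tex101, which was lower, where 8.01% of 9834 genes passed. The median difference of the 8 was -0.28, beside -0.12 over all genes. Median-of-ratios scaling shifts 2-HG differences upward by up to 0.13 and took the median of the 8 to -0.16. Under it, the small differences of Dazl with 2-HG and of Stk31 with α-KG changed sign, to 0.03 and -0.02. Between the controls, 2-HG control over α-KG control, 0 of 8 passed, where 8.86% of 9927 genes did, and the median was 0.11 beside 0.09. The controls serve in these comparisons too, so the 3 sets of differences are not independent.

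**Figure D3:**
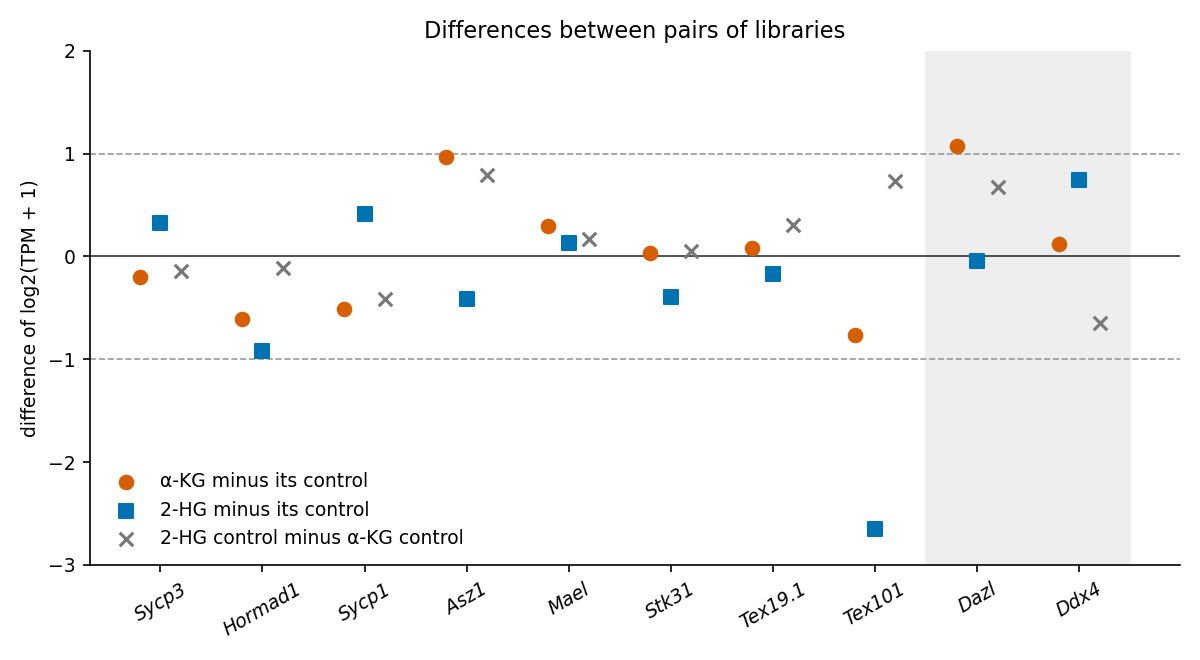
Difference of log2(TPM + 1) for each germline gene (x axis) in 3 comparisons, with α-KG minus its control, 2-HG minus its control and 2-HG control minus α-KG control. Dashed lines mark the 2-fold rule and the shaded genes stayed under 5 TPM in all libraries. Tex101 with 2-HG, at -2.65, is the only measured gene beyond the lines, and Dazl with α-KG, at 1.07, lies beyond them at a low level.

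Among the genes of meiotic chromosomes, Hormad1 was lower with both compounds. It encodes a HORMA-domain protein that coats chromosome axes and is needed for meiotic recombination (ENSMUSG00000028109.14, chromosome 3, 95559677 to 95587671). Hormad1 was at 40.3 TPM with α-KG and 62.2 TPM in its control, and at 29.9 TPM with 2-HG and 57.4 TPM in its control. Both treated libraries lay below both controls. The log2 differences were -0.61 with α-KG and -0.92 with 2-HG, against -0.11 between the controls, and both stayed under the size rule. Set against the α-KG control instead, the 2-HG library gave -1.03, which passes it. The next gene on the same strand, Golph3l, starts 1263 bp away and was at 1.92 TPM with α-KG and 19.4 TPM in its control, and close to that control in both libraries of the 2-HG pair. Its part in the Hormad1 values was not tested.

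Sycp3 and Sycp1 went in opposite directions with the 2 compounds. Sycp3 encodes the axial element protein of the synaptonemal complex (ENSMUSG00000020059.9, chromosome 10, 88459569 to 88473236). It was at 123 TPM with α-KG and 141 TPM in its control, and at 159 TPM with 2-HG and 127 TPM in its control, a ratio of 0.870 for α-KG and 1.25 for 2-HG. Sycp3 ranked 1460 with α-KG, 1286 in its control, 1159 with 2-HG and 1495 in its control among all genes, counted from the highest level. Sycp1 encodes the transverse filament of the same complex (ENSMUSG00000027855.13, chromosome 3, 102818499 to 102936100). It was at 35.9 TPM with α-KG and 51.6 TPM in its control, and at 51.7 TPM with 2-HG and 38.6 TPM in its control. For both genes the α-KG library was the lowest and the 2-HG library the highest of the 4, by a margin of under 0.1 TPM over the α-KG control for Sycp1. The log2 differences of Sycp1 were -0.51 and 0.41, against -0.41 between the controls, so the controls differed by about as much as the 2-HG pair.

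The Sycp3 value is uncertain because Chpt1, a phospholipid synthesis gene, overlaps its exons on the opposite strand over 660 of 1264 exon bases. Whether reads were assigned by strand is not given in the sources used here. Chpt1 was at 69.8 TPM with α-KG and 60.1 TPM in its control, and at 49.0 TPM with 2-HG and 77.6 TPM in its control. In each pair Chpt1 thus lay on the other side of its control from Sycp3. Its part in the Sycp3 values was not tested.

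Among the members with a role in transposon defence, Asz1 had the largest difference with α-KG. Asz1 encodes GASZ, a protein on germ cell mitochondria that piRNA production needs (ENSMUSG00000010796.11, chromosome 6, 18050964 to 18109061). It was at 40.5 TPM with α-KG and 20.2 TPM in its control, and at 26.4 TPM with 2-HG and 35.6 TPM in its control. The α-KG library was the highest of the 4 and its control the lowest, and the other 2 lay between them. The log2 difference with α-KG was 0.97, just under the size rule, and 1.00, past it, with a pseudocount of 0.1. Between the controls it was 0.79, and with 2-HG it was -0.42.

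Mael and Tex19.1 varied little, and Stk31 was lower with 2-HG. Mael encodes maelstrom, a piRNA pathway protein that represses transposons (ENSMUSG00000040629.8, chromosome 1, 166201201 to 166238747). It was at 31.7 TPM with α-KG and 25.6 TPM in its control, and at 31.7 TPM with 2-HG and 28.8 TPM in its control, so both treated libraries lay above both controls. The log2 differences were 0.30 and 0.13, against 0.17 between the controls. Stk31 encodes a Tudor-domain kinase of germ cells (ENSMUSG00000023403.14, chromosome 6, 49395604 to 49469501). It was at 17.5 TPM with α-KG and 17.1 TPM in its control, and at 13.3 TPM with 2-HG and 17.8 TPM in its control, so the 2-HG library stood lowest. The log2 differences of Stk31 were 0.03 and -0.39, against 0.05 between the controls. Tex19.1 restrains retrotransposons in germ cells, placenta and pluripotent cells (ENSMUSG00000039329.8, chromosome 11, 121146143 to 121148319). It was at 7.38 TPM with α-KG and 6.90 TPM in its control, and at 7.66 TPM with 2-HG and 8.74 TPM in its control. Its log2 differences were 0.08 and -0.17, against 0.30 between the controls. Its neighbour and paralog Tex19.2, 27466 bp away, was lower in every library, at 2.19 TPM with α-KG and 1.01 TPM in its control, and at 1.39 TPM with 2-HG and 1.43 TPM in its control.

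The germ cell RNA regulators Dazl and Ddx4 were the only members to cross upward over 1 TPM with a compound, 1 with each. In each pair only 1 member was under 1 TPM in the control, so no other member could cross upward. Dazl encodes an RNA-binding protein that controls translation in germ cells (ENSMUSG00000010592.8, chromosome 17, 50279395 to 50293636). It was at 2.33 TPM with α-KG and 0.586 TPM in its control, and at 1.45 TPM with 2-HG and 1.53 TPM in its control. The α-KG control stood apart as the lowest, since the other 3 libraries lay above 1 TPM. Ddx4 encodes the VASA homologue, an RNA helicase of germ granules (ENSMUSG00000021758.14, chromosome 13, 112598333 to 112652475). It was at 1.68 TPM with α-KG and 1.46 TPM in its control, and at 1.63 TPM with 2-HG and 0.575 TPM in its control. Here the 2-HG control stood apart as the lowest.

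Both genes also crossed 1 TPM between the controls, in opposite directions. Of genes under 1 TPM in the control, 3.90% reached 1 TPM with α-KG and 2.91% with 2-HG, or 6.14% and 4.48% of protein-coding genes. Between the controls, Dazl crossed upward in the 2-HG control, where 3.74% of all genes and 6.70% of protein-coding genes did. Ddx4 crossed downward there, where 8.53% of all genes and 4.12% of protein-coding genes did. With α-KG, 0 of the 9 members at or above 1 TPM in the control crossed downward, where 8.93% of all genes and 4.67% of protein-coding genes did. The log2 differences were 1.07 for Dazl with α-KG and 0.74 for Ddx4 with 2-HG, against 0.67 and -0.64 between the controls. Both were larger in size than between the controls, with no replicate to set them against. The mean of both controls was already above 1 TPM for both genes, so neither crossed it on that basis. The sequencing depth behind such low values is unknown.

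Tex101 was lower with both compounds. It encodes a GPI-anchored glycoprotein of testicular germ cells that sperm need for fertility (ENSMUSG00000062773.6, chromosome 7, 24668007 to 24676675). It was at 1.24 TPM with α-KG and 2.79 TPM in its control, and was listed at 0 with 2-HG and at 5.29 TPM in the 2-HG control. Both treated libraries lay below both controls, and the log2 differences were -0.76 and -2.65, against 0.73 between the controls. The 2-HG value passed the size rule only with its own control, since Tex101 stayed under 5 TPM in the α-KG control and in the mean of both. Of 9417 genes at or above 5 TPM in the 2-HG control, 0.138% were listed at 0 with 2-HG. Tex101 ranked 9270 in that control, near the lowest of these genes, so most of them stood at higher levels. The share is therefore not one for genes at the level of Tex101. Of the 9 members at or above 1 TPM in the 2-HG control, 1 was under it with 2-HG, Tex101. Of all genes at or above 1 TPM in the 2-HG control, 11.2% were under it with 2-HG, and 6.38% of protein-coding genes.

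The wider set of germline genes was mixed in level, and few passed the size rule. It holds 62 genes of piRNA and transposon defence, meiosis and germ cell regulation. At or above 1 TPM were 29 of them with α-KG, 27 in its control, 29 with 2-HG and 32 in its control. In the same libraries 48.7% to 50.2% of protein-coding genes and 25.1% to 25.8% of all genes reached that level. The counts are thus near the share of protein-coding genes. With α-KG, 2 of 17 measured genes (Tdrkh and Stra8) passed the size rule upward and 0 downward, where 4.21% and 3.10% of all genes were. With 2-HG, 0 of 17 passed upward and 3 (Syce3, Smc1b and Rpl10l) downward, where 2.36% and 5.65% of all genes were. The median differences were 0.11 with α-KG, beside 0.05 over all genes, and -0.45 with 2-HG, beside -0.12. Between the controls the median was 0.35, beside 0.09, and 1 of 17 passed upward (Gtsf1) and 1 downward (Tuba3a), where 5.99% and 2.87% of all genes did.

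**Figure D4:**
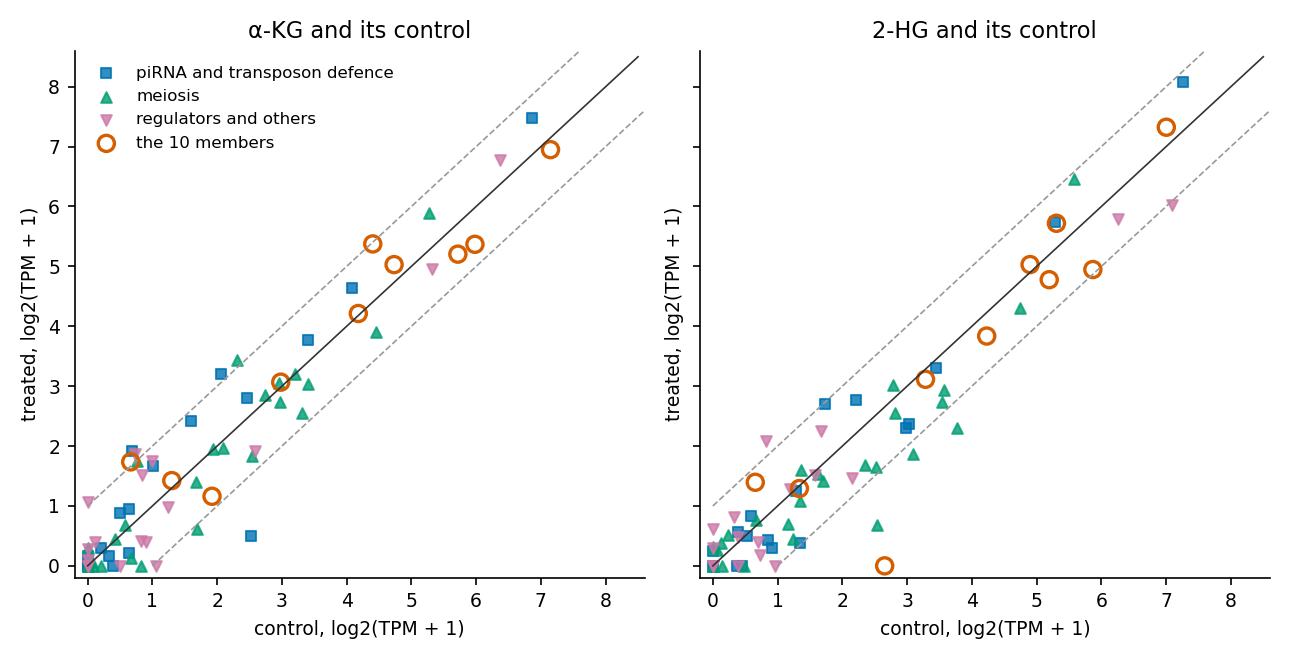
Levels of the 62 wider germline genes and the 10 members in the treated library (y axis) against its control (x axis), both as log2(TPM + 1), for α-KG (left) and 2-HG (right). The solid line marks equal levels and the dashed lines 2-fold. Most genes lie between the dashed lines, and Tex101 lies at 0 on the 2-HG axis.

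In the transposon defence list, Fkbp6, a co-chaperone of piRNA loading, was the highest. It was at 177 TPM with α-KG and 116 TPM in its control, and at 269 TPM with 2-HG and 153 TPM in its control. Gtsf1, a PIWI partner, was at 24.0 TPM with α-KG and 16.0 TPM in its control, and at 52.2 TPM with 2-HG and 37.8 TPM in its control. Piwil2, a piRNA-binding protein, was at 12.6 TPM with α-KG and 9.53 TPM in its control, and at 8.91 TPM with 2-HG and 9.91 TPM in its control. Piwil1 and Piwil4 did not exceed 0.31 TPM in any library. Tdrd12 was at 0.41 TPM with α-KG and 4.72 TPM in its control, and at 5.48 TPM with 2-HG and 2.34 TPM in its control. Exd1 was at 2.79 TPM with α-KG and 0.60 TPM in its control, and at 0.35 TPM with 2-HG and 0.80 TPM in its control.

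Tdrkh, a Tudor-domain protein that tethers PIWI proteins to mitochondria, was at 8.26 TPM with α-KG and 3.19 TPM in its control, and at 4.17 TPM with 2-HG and 7.13 TPM in its control.

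In the meiosis list, Syce2, a central element protein of the synaptonemal complex, was at 58.2 TPM with α-KG and 37.7 TPM in its control, and at 87.5 TPM with 2-HG and 46.9 TPM in its control. Dmc1, the meiotic recombinase, was at 13.9 TPM with α-KG and 20.9 TPM in its control, and at 18.7 TPM with 2-HG and 25.8 TPM in its control. Syce3 was at 4.87 TPM with α-KG and 8.88 TPM in its control, and at 3.92 TPM with 2-HG and 12.6 TPM in its control, where it passed the size rule. Of these 3 genes of meiotic chromosomes, Syce2 was higher with both compounds, and Syce3 and Dmc1 were lower with both. Smc1b, a meiotic cohesin subunit, was at 6.19 TPM with α-KG and 5.66 TPM in its control, and at 2.65 TPM with 2-HG and 7.52 TPM in its control. Its 2-HG library was the lowest of the 4, with a log2 difference of -1.22. Syce1 was at 0.54 TPM with α-KG and 2.22 TPM in its control, and at 2.21 TPM with 2-HG and 4.11 TPM in its control. Tex12 was at 5.62 TPM with α-KG and 6.87 TPM in its control, and at 0.61 TPM with 2-HG and 4.79 TPM in its control, under the 5 TPM minimum of the 2-HG pair. Stra8, which gates entry into meiosis, was at 9.81 TPM with α-KG and 3.92 TPM in its control, and at 2.13 TPM with 2-HG and 4.75 TPM in its control. Its α-KG library was the highest of the 4. Spo11, which makes meiotic breaks, was listed at 0 in all 4 libraries.

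Among the regulators and other germline genes, Dpep3 was at 30.1 TPM with α-KG and 38.7 TPM in its control, and at 54.4 TPM with 2-HG and 75.5 TPM in its control. Rpl10l, a retrogene whose reads can be shared with its parent Rpl10, was at 109 TPM with α-KG and 81.2 TPM in its control, and at 64.4 TPM with 2-HG and 135 TPM in its control, where it passed the size rule. Tuba3a has a near-identical copy in Tuba3b, so its value is uncertain. It was at 2.76 TPM with α-KG and 5.01 TPM in its control, and at 3.23 TPM with 2-HG and 0.76 TPM in its control. Figla, an oocyte transcription factor, was at 2.65 TPM with α-KG and 0.67 TPM in its control, and at 1.88 TPM with 2-HG and 2.00 TPM in its control. Taf7l was at 1.10 TPM with α-KG and listed at 0 in its control. In the 2-HG pair Taf7l was listed at 0 with 2-HG and at 0.95 TPM in the control. Nanos3 was listed at 0 with α-KG and at 1.07 TPM in its control, and at 0 in both libraries of the 2-HG pair.

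Markers of the cells that could carry germline RNA were low. The 12 stored oocyte mRNAs summed to 4.19 TPM with α-KG and 6.58 TPM in its control, and to 18.8 TPM with 2-HG and 9.74 TPM in its control. Padi6 was the highest of them in every library. It was at 9.38 TPM with 2-HG and 5.84 TPM in its control, and at 2.25 TPM with α-KG and 4.39 TPM in its control. Gdf9, an oocyte growth factor, was at 4.75 TPM with 2-HG and 1.29 TPM in its control. With α-KG Gdf9 was at 1.34 TPM, and it was listed at 0 in the α-KG control. Nlrp14 was at 1.58 TPM and Bmp15 at 1.03 TPM with 2-HG, and both were listed at 0 in its control, while Zp1, Zp2 and Zp3 of the egg coat reached at most 1.07 TPM. The 12 genes of haploid sperm cells summed to 14.0 TPM with α-KG and 4.99 TPM in its control, and to 7.14 TPM with 2-HG and 5.81 TPM in its control, with Akap4 and Acr listed at 0 in all. Ldhc, a testis lactate dehydrogenase, was at 5.51 TPM with α-KG and listed at 0 in its control, and was at 3.82 TPM with 2-HG and 2.04 TPM in its control. Prm1, a protamine of sperm chromatin, was at 4.55 TPM with α-KG and 0.30 TPM in its control, and at 0.83 TPM with 2-HG and 0.62 TPM in its control. Of 10 cumulus and granulosa genes, 1 reached 1 TPM in each library, Star, and Has2, Ptx3, Amh and Fshr were listed at 0 in all. The 10 blastocyst lineage genes summed to between 6256 and 7374 TPM, with Krt18 at 3607 to 4339 TPM, Krt8 at 1985 to 2523 TPM and Gata3 at 180 to 256 TPM. The part of oocyte and sperm RNA in the low values of Dazl, Ddx4 and Tex101 was not tested, and in bulk libraries fewer cells with a transcript and less transcript per cell cannot be told apart.

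Most enzymes of DNA methylation and known repressors of germline genes were at or above 1 TPM in every library, with Tet3 in the α-KG control (0.49 TPM) and E2f6 with α-KG (0.97 TPM) as the exceptions. Of 9 DNA methylation genes, 8 were measured with α-KG and 0 passed the size rule, where 7.31% of all genes did, and with 2-HG 1 of 8 did, Tet1, which was higher at 40.9 TPM with 2-HG and 19.8 TPM in its control, where 2.36% of all genes passed upward. Tet1 was at 41.1 TPM with α-KG and 40.7 TPM in its control, so the 2-HG control was the lowest of the 4 libraries. It also passed the size rule downward in the 2-HG control against the α-KG control, where 2.87% of all genes did. Dnmt3l, a cofactor of de novo methylation, was at 144 TPM with α-KG and 125 TPM in its control, and at 107 TPM with 2-HG and 115 TPM in its control. Dnmt3b was at 113 TPM with α-KG and 103 TPM in its control. With 2-HG it was at 55.7 TPM, and at 103 TPM in the 2-HG control. Its log2 difference with 2-HG was -0.87, under the size rule, against 0.00014 between the controls. Tet2 was at 114 TPM with α-KG and 98.9 TPM in its control. With 2-HG it was at 66.8 TPM, and at 78.2 TPM in the 2-HG control. Of 20 germline repressors, 1 of 18 measured passed the size rule upward with α-KG, Kdm5c, an X-linked histone demethylase, at 13.2 TPM with α-KG and 2.97 TPM in its control, where 4.21% of all genes passed upward, and 0 of 18 passed with 2-HG, where 8.01% passed in one direction or the other. A count of 1 in 18 is near the share of all genes. Kdm5c was also higher in the 2-HG pair, at 7.28 TPM with 2-HG and 3.38 TPM in its control. Its log2 difference there was 0.92, under the size rule, against 0.14 between the controls. The most abundant of this list were Hdac2 at 205 to 266 TPM, Trim28 at 184 to 233 TPM and Hdac1 at 106 to 152 TPM. E2f6 was low, at 0.97 TPM with α-KG and 2.31 TPM in its control, and at 1.41 TPM with 2-HG and 2.09 TPM in its control. Mga was at 36.5 TPM with α-KG and 28.8 TPM in its control, and at 30.2 TPM with 2-HG and 25.8 TPM in its control. Pcgf6, of the same Polycomb complex, was at 25.9 TPM with α-KG and 28.9 TPM in its control, and at 14.0 TPM with 2-HG and 24.9 TPM in its control.

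Genes related to the members were apart from them in level in some cases and not in others. Sharing of reads between them was not measured, and levels do not show it. Boll, the paralog of Dazl, did not exceed 0.07 TPM, and Hormad2 was at 5.91 to 7.28 TPM in all libraries. Ddx3x, a relative of Ddx4 that all cells express, was at 180 to 228 TPM, and D1Pas1 at 1.85 to 5.27 TPM. Their part in the values of Ddx4 was not tested. The X-linked Xlr3a, of the family related to Sycp3, was at 142 TPM with α-KG and 154 TPM in its control, and at 136 TPM with 2-HG and 240 TPM in its control. Its range overlapped with that of Sycp3, at 123 to 159 TPM, as did that of Xlr3b, at 77.7 to 139 TPM. The part of Xlr genes in the Sycp3 values was not tested. Xlr copies are near-identical, so their values are uncertain. Of 8 related genes measured with 2-HG, 2 passed the size rule downward (D1Pas1 and Xlr4a), where 5.65% of all genes did.

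Several genes that flank the members on the chromosome were at or near 0. Ctss beside Hormad1 and the nearest genes on both sides of Tex101 were listed at 0 in all libraries, and Wnt2 beside Asz1 and Nr1h5 beside Sycp1 did not exceed 0.11 TPM. Expressed neighbours were Slc38a9, at 8.37 TPM with α-KG and 6.88 TPM in its control beside Ddx4, and Gpa33 beside Mael, at 23.4 TPM with α-KG and 10.2 TPM in its control, and at 21.0 TPM with 2-HG and 19.9 TPM in its control. Fam221a beside Stk31 was at 10.6 to 15.8 TPM.

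The protein-coding genes with patterns closest to the members over the 4 libraries were of varied kinds, by Euclidean distance of log2(TPM + 1). For Sycp3 the closest was Avpi1, at a distance of 0.13, for Hormad1 Ugdh at 0.30, for Sycp1 Cyb5r4 at 0.10 and for Asz1 Kif2c at 0.14. For Mael it was Taco1 at 0.06, for Stk31 Pmaip1 at 0.09, for Tex19.1 Nol6 at 0.13 and for Tex101 Nrg1 at 0.49. With 4 libraries and so many genes to choose from, such likeness describes these values only.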

How the data were processed

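The authors deposited 1 table of TPM per gene for 4 libraries of mouse blastocysts, 1 per group. The submitters' processing notes name StringTie, HISAT2, Trimmomatic, DESeq2 and Picard and the builds mm10 and GRCm38.p6; versions and roles are not given in the sources used here. The TPM columns sum to between 999891 and 999935. Read counts were not used here, so depth is unknown and no counting interval is given. A second deposited worksheet holds none of the 10 genes and was not used, nor were its 6 columns of other libraries.

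Differences of log2(TPM + 1) were taken between libraries (Python 3.11.15, pandas 2.3.3) for genes with at least 5 TPM in 1 library of a pair, with a size rule of 1. The pseudocount of 1 shrinks the differences of genes at low levels. With 1 library a group no test was run. Gene IDs were matched without version to GENCODE M21 (GRCm38), 53620 of 53715, and 3 list genes were matched by ID alone. Named genes were all members and genes next to them. From each list, genes were drawn from the 3 highest and from those that crossed 1 TPM by at least 2-fold. Not all genes that met this rule are named. E2f6, Mga, Pcgf6, Kdm5c, Tet1, Tdrkh, Stra8, Smc1b, D1Pas1, Xlr4a and genes given as ranges or at 0 were added after their values were seen. The 10 genes and 11 further lists were chosen with earlier results of these data known. The size rule and the level line were checked on known changes put on the values of 1 library, without noise. Such a check shows only that the rules count as written, and not how libraries vary. Alternatives were other pseudocounts, minimums, level lines, scaling and controls.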

Additional observations from a re-analysis of the deposited data

How the results depend on the processing

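Each of the 10 genes was recomputed with pseudocounts of 0.1 and 5, with median-of-ratios scaling and with other controls. Of these values 115 kept their direction and side of the size rule, 10 under the rule changed sign, 3 came to pass it and 2, both Tex101 with 2-HG, left it. Members past the rule with α-KG numbered 1 with a pseudocount of 0.1 (Asz1) and 1 against the 2-HG control (Tex101), in place of 0, and with 2-HG 0 against the mean of both controls, in place of 1. The median with α-KG was -0.018 with median-of-ratios scaling, -0.078 against the 2-HG control and -0.074 against the mean of both controls, and that with 2-HG was 0.13 against the α-KG control. The sign of these medians therefore depended on the control. Without a minimum, or with 1 TPM, 2225 genes passed with α-KG, 2189 with 2-HG and 2256 between the controls, and with a pseudocount of 5 there were 289, 321 and 398. Members newly above the level line numbered 0 in all 3 comparisons with a line of 0.1 or 0.5 TPM, 0 with 2-HG and between the controls at 2 TPM, and 0 with both compounds against the mean of both controls. No member was under 0.5 TPM in either control, the lowest being Dazl at 0.586 TPM and Ddx4 at 0.575 TPM. None could therefore cross upward at 0.1 or 0.5 TPM, and these counts of 0 were fixed by the control values. The same holds for the mean of both controls, which was above 1 TPM for every member. Members no longer above the level line numbered 1 with α-KG at 2 TPM, and 0 between the controls at 0.1, 0.5 and 2 TPM. The cause of the other changes was not tested. No paired analysis was possible because each group holds 1 library. The unknown depth limits every value near or under 1 TPM.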

Other observations

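Genes of the 2-cell stage, which the embryo transcribes at genome activation and then shuts off, were listed above 1 TPM more often with α-KG than in its control. Of 12 such genes, 7 were at or above 1 TPM with α-KG and 2 in its control, and 1 with 2-HG and 2 in its control. Of the 10 under 1 TPM in the α-KG control, 5 reached it with α-KG, where 3.90% of all genes did; with 2-HG it was 1 of 10, where 2.91% did. Zfp352 was at 7.28 TPM with α-KG and listed at 0 in its control, and at 0.27 TPM with 2-HG and listed at 0 in its control. Usp17lb was at 4.05 TPM, Tdpoz3 at 2.84 TPM and Zscan4d at 2.37 TPM with α-KG, and all 3 were listed at 0 in its control. Zscan4f was at 1.32 TPM with α-KG and 0.27 TPM in its control, and Tcstv3 at 1.85 TPM with 2-HG and listed at 0 in its control. Tcstv1 was at 4.05 TPM with α-KG and 4.24 TPM in its control, and was listed at 0 with 2-HG and at 4.27 TPM in its control. Several of these genes belong to families of near-identical copies, so single values are uncertain, and all rest on 1 library a group.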
